A study of Mus musculus with 6 samples.

Results

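The P2X purinergic receptors are 7 genes of the mouse genome, P2rx1 to P2rx7, taken here by symbol from the GENCODE vM21 annotation out of the 50686 genes in the count files. They were chosen because P2rx1 was among the largest increases in NSC Bmi1Over, so their RNASeq values below are a description of these libraries and carry no test. Of the RNASeq libraries, 2 came from wild-type embryos at E16.5, whose neural stem cells were grown as NSC cultures, and 2 from cultures labelled NSC Bmi1Over. The latter came from STOPFloxBmi1;NestinCre embryos of the same age, in which Cre driven by the Nestin promoter removes a stop cassette in front of a Bmi1 transgene in neural progenitors. The comparison asks which transcripts differ when Bmi1, a subunit of Polycomb repressive complex 1, is supplied from the transgene. H3K27me3, the histone mark of Polycomb repression, was analysed from 1 ChIPSeq library of each kind, as the authors kept 1 replica per condition after quality checks, and the glioblastoma initiating cells of the study were not analysed here.

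P2X receptors are cation channels opened by extracellular ATP, and each channel is built from 3 subunits. P2X1 is best known from platelets and smooth muscle, P2X2 and P2X3 from sensory neurons, P2X4 and P2X7 from microglia and other immune cells. P2X7 needs far more ATP than the other channels to open, and in macrophages it drives the inflammasome and the release of interleukin-1β. ATP that leaves a cell is also read by the G protein-coupled P2Y receptors, and ectonucleotidases on the cell surface break it down to adenosine, which has receptors of its own.

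Counted reads ranged from 18112100 to 61353076 per library, and 3 reads corresponded to between 0.0525 and 0.171 CPM (counts scaled to the TMM-normalised library size). Bmi1, the gene to be overexpressed, was at 133 and 124 CPM in NSC and at 119 and 113 CPM in the cultures labelled NSC Bmi1Over (log2 fold change −0.15, SE 0.12, adjusted p = 0.463 in edgeR's quasi-likelihood test). The Bmi1 counts thus did not show the labelled overexpression, and these libraries are called by their label throughout. The share of reads that could not be mapped went from 11.2% and 13.8% (NSC) to 16.2% and 17.6% (labelled NSC Bmi1Over). Summed CPM of 8 neural stem cell markers lay between 3600 and 4403 in the 4 libraries. Sums of 7 oligodendrocyte lineage markers were 2284 and 2340 CPM in NSC against 2315 and 2062 CPM, and none was called. Among these, Sox10 was at 0.286 and 4.64 CPM and Pdgfra at 16.5 and 44.5 CPM in replicates 1 and 2 labelled NSC Bmi1Over. Of 6 neuronal markers only Syt1, a synaptic vesicle protein gene, was called, at 9.13 and 27.2 against 66.5 and 95.9 CPM, and the other 5 summed to 42.5 and 40.0 against 26.6 and 42.2 CPM. Of 5 astrocyte markers only Aldh1l1 was called, at 122 and 94.2 against 66.0 and 53.3 CPM, and the other 4 summed to 18.4 and 16.3 against 18.7 and 11.9 CPM. The part of other cell types in the values below was not tested. In bulk samples, fewer cells of a type and less RNA per cell cannot be told apart.

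P2rx1 (ENSMUSG00000020787, chromosome 11, 72999103 to 73015200 on the plus strand of mm10) encodes the P2X1 subunit, whose channel desensitises quickly after ATP binds. In NSC it had 14 and 50 reads, or 0.444 CPM (95% Poisson interval 0.243 to 0.744) and 1.98 CPM (1.47 to 2.61). In the cultures labelled NSC Bmi1Over it had 131 and 446 reads, or 7.48 CPM (6.26 to 8.88) and 7.81 CPM (7.10 to 8.56). Both libraries labelled NSC Bmi1Over were thus above both NSC libraries, and the lower of them was 3.78 times the higher NSC value. The NSC cultures differed from each other by 4.46-fold, whereas the other cultures differed by 1.04-fold. NSC averaged 1.21 ± 1.09 CPM and the cultures labelled NSC Bmi1Over 7.64 ± 0.228 CPM (SD, n = 2 each), with a fitted log2 fold change of 2.71 (SE 0.49), equal to 6.53-fold. This was rank 17 of the 15521 genes tested, ordered from the largest log2 fold change down. The size of the difference rested on which NSC culture was used: the log2 fold change was 1.95 without NSC replicate 1 and 4.09 without NSC replicate 2. It was 2.68 without NSC Bmi1Over replicate 2. The intervals cover counting error only.

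P2rx7 (chromosome 5, 122643911 to 122691432, plus strand) was the most abundant member in each of the 4 libraries. It had 1928 and 1938 reads in NSC, which is 61.1 and 76.7 CPM, and 1324 and 5722 reads in the cultures labelled NSC Bmi1Over, which is 75.6 and 100.1 CPM. The groups overlapped, as the lower library labelled NSC Bmi1Over fell below the higher NSC library, and the log2 fold change was 0.36 (SE 0.17). An annotated microRNA, Mir8115, lies within the gene and shares up to 119 bp of exon with it.

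P2rx4 lies 16111 bp downstream of P2rx7 on the same strand (chromosome 5, 122707544 to 122729738), and its product forms channels that conduct much calcium. It was at 14.5 and 17.8 CPM in NSC and at 19.2 and 22.1 CPM in the cultures labelled NSC Bmi1Over, from 336 to 1265 reads per library. The groups did not overlap, but the lower value of the second group was only 1.08 times the higher value of the first. The log2 fold change was 0.36 (SE 0.16), close to that of P2rx7.

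P2rx3 (ENSMUSG00000027071, chromosome 2, 84998583 to 85037462, minus strand), known from pain-sensing neurons, was the only member that was lower in the cultures labelled NSC Bmi1Over. It was at 10.6 and 12.3 CPM in NSC, from 334 and 310 reads, and at 5.03 and 7.33 CPM in the cultures labelled NSC Bmi1Over, from 88 and 419 reads. The mean went from 11.4 ± 1.19 to 6.18 ± 1.63 CPM (SD, n = 2 each) with no overlap between the groups, and the log2 fold change was −0.86 (SE 0.22). These values are uncertain because P2rx3 shares up to 69 bp of exon with Ssrp1, and the libraries do not keep the strand. Ssrp1 is a histone chaperone gene on the opposite strand at 254 to 316 CPM. Reads in the shared bases were set aside as ambiguous in the unstranded counts. When the 2 strand columns were added instead, P2rx3 gained 304 reads in NSC replicate 1 and its log2 fold change was −0.57. Ssrp1 itself had a log2 fold change of −0.21 (adjusted p = 0.402, edgeR), and how much of the remaining P2rx3 count came from its transcripts was not tested.

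The other 3 members stayed below 2 CPM in each library. P2rx6 (chromosome 16, 17561885 to 17577800, plus strand), whose subunit hardly forms channels on its own, was at 0.824 and 1.07 CPM in NSC and at 1.26 and 1.79 CPM in the cultures labelled NSC Bmi1Over (log2 fold change 0.74, SE 0.33). Its groups did not overlap, from 22 to 102 reads per library, and up to 851 bp of its exons are shared with the antisense gene Slc7a4. P2rx2 (chromosome 5, 110339812 to 110343212, minus strand), whose subunit joins P2X3 in sensory neurons, was at 0.349 and 0.435 against 0.514 and 0.508 CPM (log2 fold change 0.39, SE 0.41). This rested on 9 to 29 reads per library, and the counting intervals of all 4 libraries overlapped. P2rx5 (chromosome 11, 73160421 to 73172685, plus strand), which lies 145220 bp downstream of P2rx1, was at 0.697 and 0.554 against 0.686 and 0.893 CPM (log2 fold change 0.37, SE 0.36), and its groups overlapped.

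Divided by exon length, which allows levels to be compared between genes, the members fell into an abundant and a scarce group. P2rx7 led with 10.2 and 12.8 CPM per kb in NSC and 12.7 and 16.8 CPM per kb in the cultures labelled NSC Bmi1Over, above any other member in any library. P2rx3 stood at 3.80 and 4.40 CPM per kb in NSC, above P2rx4 at 2.07 and 2.53. In the unstranded counts of the cultures labelled NSC Bmi1Over that order turned, with P2rx3 at 1.80 and 2.63 and P2rx4 at 2.73 and 3.15 CPM per kb. P2rx1 was at 0.169 and 0.754 CPM per kb in NSC and thus ranked 6 and 4 among the 7 genes. In the cultures labelled NSC Bmi1Over it was at 2.85 and 2.97 CPM per kb, ranked 2 and 3 and lay within the range of P2rx4. These ranks and this likeness to P2rx4 hold per kb of all annotated exons and depend on that length. P2rx4 has 7025 bp of annotated exons but a longest transcript of 3895 bp, whereas for P2rx1 these lengths are 2625 and 2486 bp. The place of P2rx3 depended on the bases it shares with Ssrp1. With the strand columns added, P2rx3 was at 6.80 and 7.10 CPM per kb in NSC and at 4.68 and 4.65 in the other cultures, above P2rx4 in each library, and P2rx1 then ranked 3 and 4. P2rx6 and P2rx5 overlapped each other in NSC and P2rx2 was the lowest in each library, at 0.135 to 0.200 CPM per kb.

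**Figure D1:**
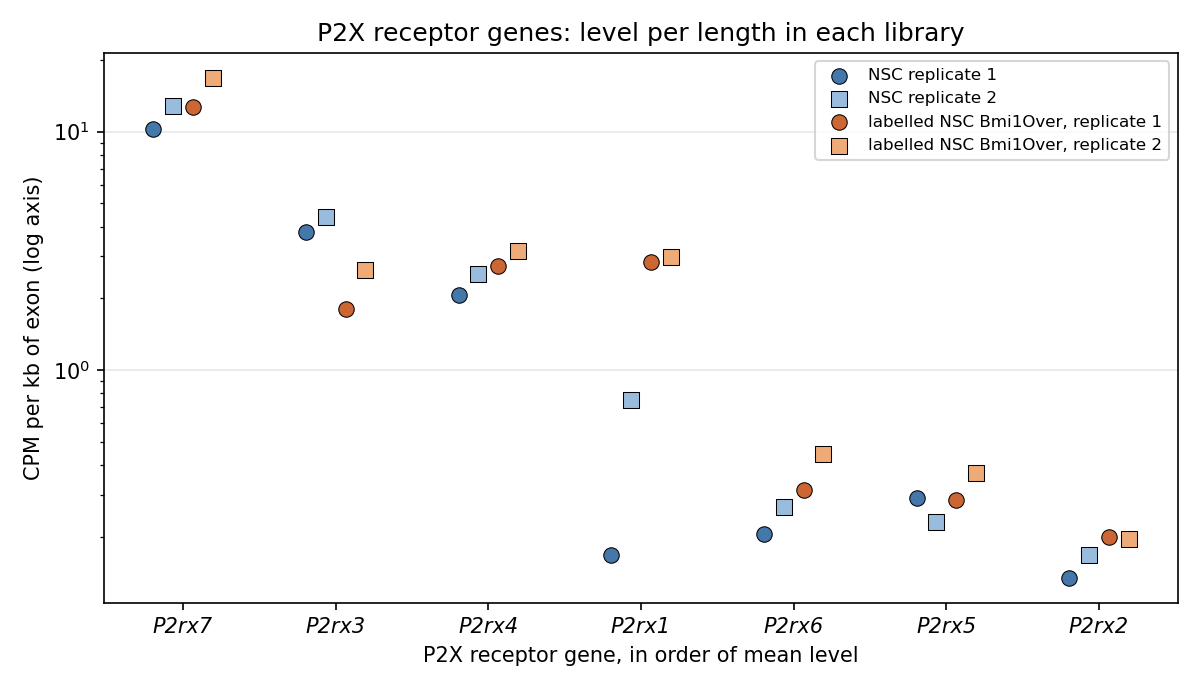
Level of each P2X gene in CPM per kb of exon (log axis) in the 4 RNASeq libraries, with genes ordered by mean level and 1 point per library. P2rx1 moved from 0.169 and 0.754 in NSC to 2.85 and 2.97 in the libraries labelled NSC Bmi1Over, and P2rx7 stood highest throughout.

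The make-up of the P2X reads, computed from the same reads as above and so no further support, describes the family within each library. Of the 2794, 2799, 1922 and 8034 reads on the 7 genes in NSC replicates 1 and 2 and NSC Bmi1Over replicates 1 and 2, P2rx7 took 69.0%, 69.2%, 68.9% and 71.2%. The share of P2rx1 was 0.501% (95% Wilson interval 0.299 to 0.839) and 1.79% (1.36 to 2.35) in NSC and 6.82% (5.77 to 8.03) and 5.55% (5.07 to 6.07) in the libraries labelled NSC Bmi1Over. The share of P2rx3 was 11.95% and 11.1% in NSC against 4.58% and 5.22%, or 20.6% and 17.6% against 11.7% and 9.41% with the strand columns added. P2rx4 took between 15.8% and 17.5% in all 4 libraries. Summed over the family, NSC expressed 88.5 and 111 CPM against 109.8 and 141 CPM, so that the sums of the groups overlapped.

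**Figure D2:**
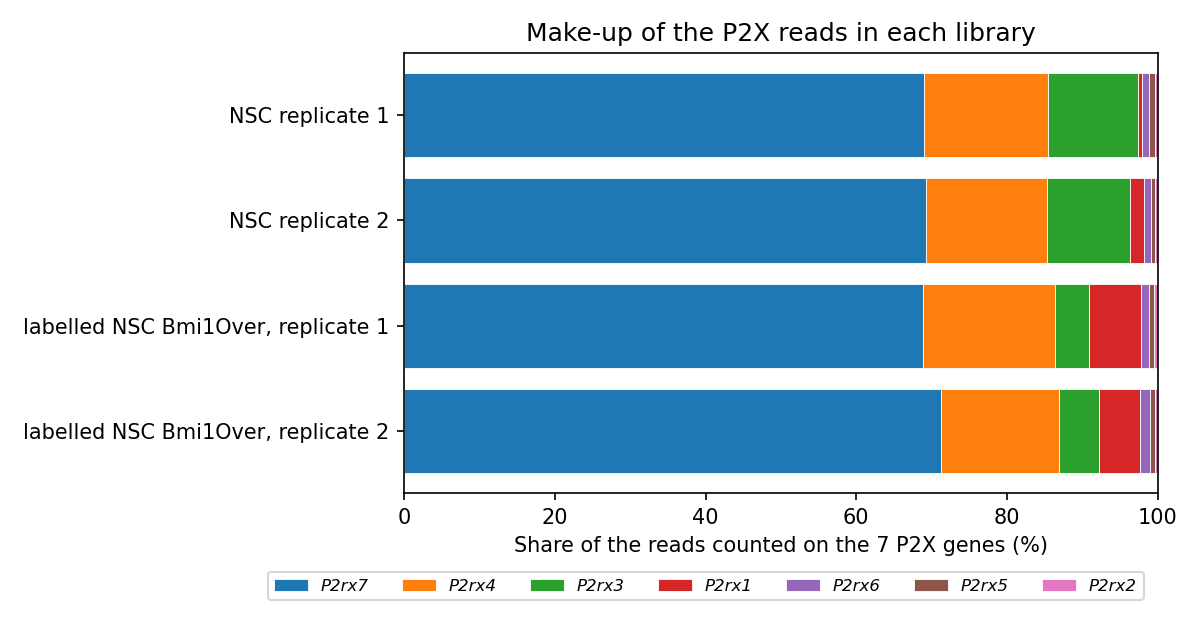
Share of the reads on the 7 P2X genes that each gene took, in percent, with 1 bar per RNASeq library. P2rx7 holds 68.9% to 71.2% of each bar, while P2rx1 widens from at most 1.79% in NSC to at least 5.55% and P2rx3 narrows from at least 11.1% to at most 5.22%.

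In the fit over all genes, 7 of 7 members were kept by the filter on low counts and 1, P2rx1, had an adjusted p under 0.05, against 2.15% of all genes tested. In the direction of higher expression these were 1 of 7 members against 2.03%, and in the direction of lower expression 0 of 7 against 0.122%. Without NSC Bmi1Over replicate 2, the 1 member was P2rx3 in place of P2rx1. Nothing is read from these counts, as P2rx1 was picked from this same contrast. The groups did not overlap for 5 of 7 members, P2rx1, P2rx2, P2rx4 and P2rx6 being higher and P2rx3 lower, against 59% of all genes tested. The log2 fold change was above 0 in 6 of 7 members, with a median of 0.37, against −0.01 over all genes tested. With library size alone in place of TMM the median of all genes was −0.17, and the same 6 members remained above 0.

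The other genes of purinergic signalling show what surrounded these channels. Of 40 such genes, 26 had enough reads to be tested, and 0 had an adjusted p under 0.05 in edgeR. At an unadjusted p under 0.05 there were 16, of which 13 were higher, against 17% of all genes tested, and 3 lower, against 7.22%. DESeq2's Wald test gave 22 of them an adjusted p and called 4, Enpp1, P2ry1, Panx1 and Slc29a1, named after their values were seen, against 10.8% of all genes given one. The median log2 fold change of the 26 genes was 0.34, and it was above 0 in 17 of them (65.4%), against 48.6% of all genes tested. Adora3 and Calhm1 had no read in any library.

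Among the receptors, P2ry1, an ADP receptor coupled to calcium release, was at 15.3 and 17.2 CPM in NSC and at 22.7 and 24.9 CPM in the cultures labelled NSC Bmi1Over (log2 fold change 0.56, SE 0.14, adjusted p = 0.0754, edgeR). P2ry12, the ADP receptor of platelets and microglia, was at 1.27 and 1.74 against 2.23 and 2.96 CPM (adjusted p = 0.149). P2ry2 stayed under 1.3 CPM in all 4 libraries with overlapping groups. Of the 7 P2Y genes 4 were tested. Adora1, the inhibitory adenosine A1 receptor, was at 65.3 and 66.5 against 102 and 74.9 CPM (adjusted p = 0.158), and Adora2a and Adora2b had log2 fold changes of −0.16 and 0.21.

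Of 8 genes whose products let ATP out of the cell, 5 had enough reads to be tested. These had log2 fold changes above 0 in 5 of 5, with a median of 0.69. Both libraries labelled NSC Bmi1Over were above both NSC libraries for each of the 5, against 29% of all genes tested. None of the 5 passed the test after adjustment in edgeR, and Slc17a9 among them had only 4 to 37 reads per library. Panx2, left out by the filter on low counts, was lower, at 0.317 and 0.277 against 0.114 and 0.263 CPM from 2 to 15 reads. Panx3 had at most 1 read in any library and Calhm1 none. Panx1, a large-pore channel that releases ATP, was at 66.6 and 92.0 CPM in NSC and at 114 and 142 CPM in the cultures labelled NSC Bmi1Over (log2 fold change 0.69, SE 0.18, adjusted p = 0.0765). Lrrc8a, the core subunit of volume-regulated anion channels, had a log2 fold change of 0.69 (adjusted p = 0.151), and Gja1, which encodes connexin 43, one of 0.22 (adjusted p = 0.330).

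On the side of ATP breakdown, 3 ectonucleotidase genes had log2 fold changes above 0 and 3 below. Enpp2, which makes lysophosphatidic acid and also hydrolyses nucleotides, was at 53.4 and 47.2 against 29.3 and 42.7 CPM (log2 fold change −0.47, adjusted p = 0.163, edgeR). Alpl, tissue-nonspecific alkaline phosphatase, was at 38.8 and 35.3 against 24.3 and 32.5 CPM (adjusted p = 0.199), and Entpd1, which removes phosphates from ATP and ADP, had a log2 fold change of 0.20. The other higher genes were Enpp1, an ectoenzyme that splits ATP into AMP and pyrophosphate, at 2.92 and 3.52 against 6.51 and 5.90 CPM (log2 fold change 0.94, SE 0.23, adjusted p = 0.0667), and its relative Enpp3 (log2 fold change 0.57, adjusted p = 0.124). Slc29a1, the main equilibrative carrier of adenosine, was at 79.9 and 108 against 131 and 155 CPM (log2 fold change 0.61, SE 0.17, adjusted p = 0.0874). Slc29a3, its relative in lysosomes, had a log2 fold change of 0.49 (adjusted p = 0.132), and Adk, the kinase that turns adenosine into AMP, one of −0.39 (adjusted p = 0.191).

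Genes of the machinery that P2X7 is known to engage in macrophages ranged from near 0 to 622 reads. Nlrp3, the sensor of the inflammasome, had at most 3 reads in any library, and Il1b had 1 read in 1 NSC library and none in the others. Il18, the interleukin-18 gene, was at 12.5 and 12.8 CPM in NSC against 10.2 and 10.9 CPM, and Casp1, the protease that matures both interleukins, had 11 to 62 reads. Of the 6 genes of this list Casp1, Il18 and Gsdmd were tested, with adjusted p between 0.352 and 0.705 (edgeR). Beside 1324 to 5722 reads on P2rx7, the microglia and macrophage marker Itgam had no read, Aif1, Cx3cr1 and Tmem119 had at most 3 in any library, and Csf1r and Ptprc at most 5. The remaining marker of the 7, the lysosomal gene Cd68, had 168 to 804 reads and was at 5.32 and 8.62 against 9.71 and 14.1 CPM (log2 fold change 0.79, adjusted p = 0.128, edgeR).

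**Figure D3:**
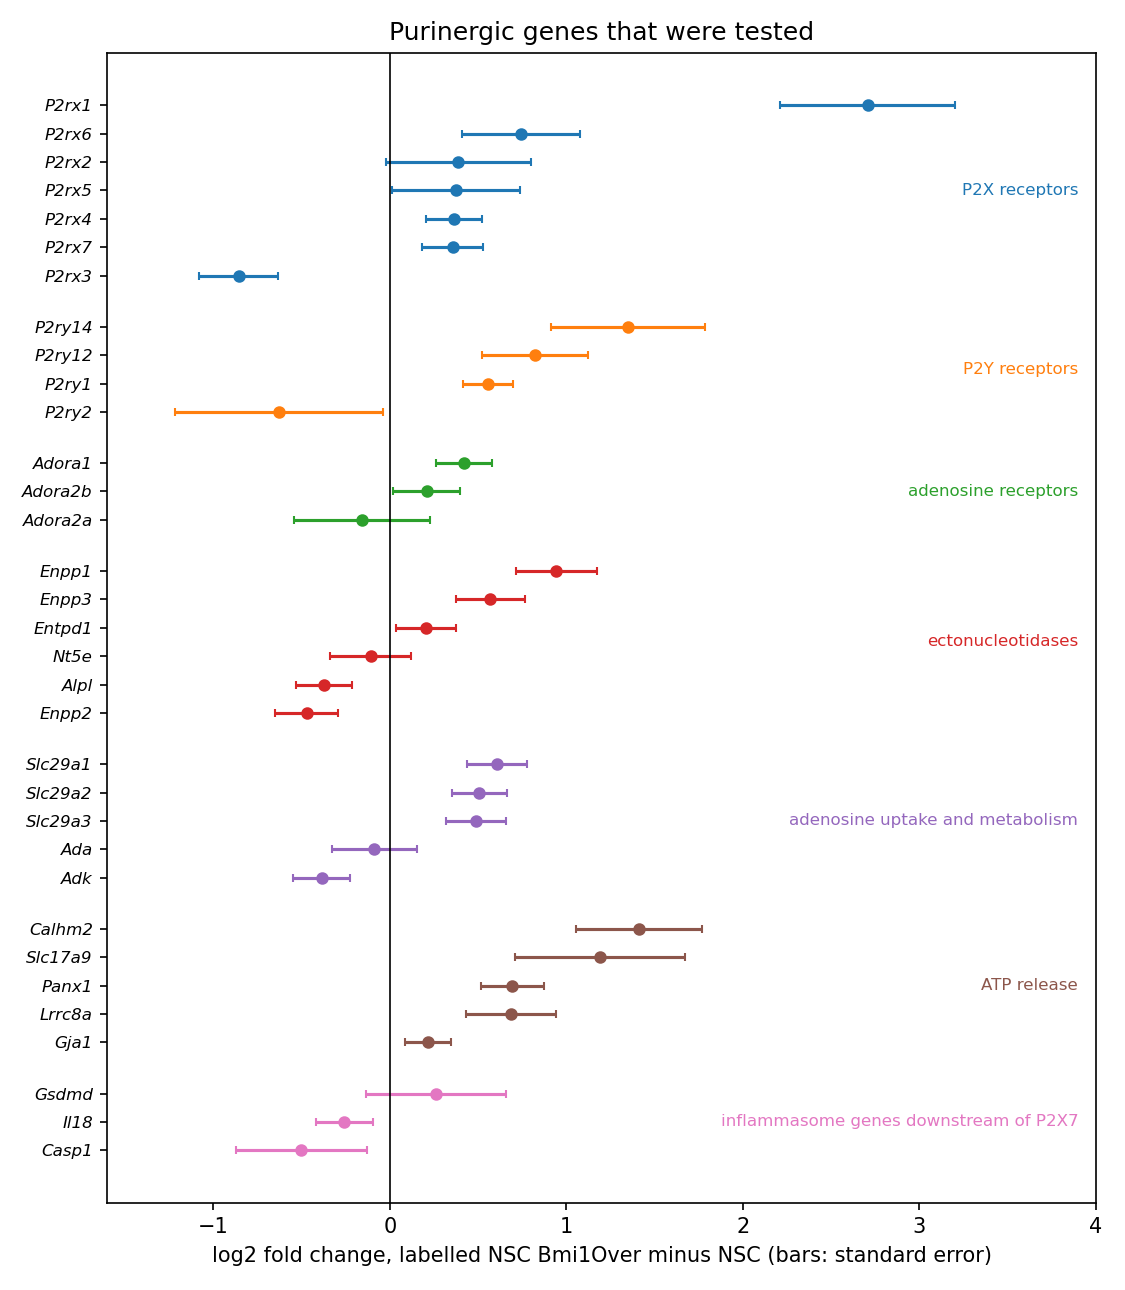
Fitted log2 fold change, cultures labelled NSC Bmi1Over minus NSC, of the 7 P2X genes and the 26 other purinergic genes tested, grouped by role, with bars of 1 standard error. P2rx1 at 2.71 lies beyond all others, P2rx3 at −0.86 is the lowest, and the 5 tested of 8 ATP release genes lie above 0.

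Markers of the cells in which P2X1 is best known were measured beside it. Of 8 markers of megakaryocytes and platelets, Treml1 had no read, and Ppbp, Gp9 and Gp6 had at most 3 reads in any library. Itga2b had 67 to 214 reads (2.25 to 3.83 CPM), Gp1ba 26 to 71 and Gp1bb 13 to 74, with no difference past the threshold. Pf4, the chemokine of platelet granules, was called: it rose from 0.380 and 0.514 CPM to 3.26 and 2.56 CPM (log2 fold change 2.68, SE 0.34, adjusted p = 0.0148, edgeR). Summed over the 8 markers, CPM was 4.69 and 6.21 in NSC against 9.37 and 8.93, and without Pf4 it was 4.31 and 5.70 against 6.11 and 6.37. The sums of 8 smooth muscle and pericyte markers were 201 and 272 against 253 and 426 CPM, of which 197 to 425 CPM came from Cspg4, a gene also used by oligodendrocyte progenitors. Without Cspg4 the sums were 3.36 and 1.86 against 2.97 and 1.98 CPM. Of the contractile smooth muscle genes, Acta2 was at 0.823 to 2.38 CPM and Myh11 at 0.277 to 0.400 CPM, with no difference past the threshold. Tagln had 5 to 24 reads and Cnn1 and Des 1 to 5, too few to be tested. Rgs5, also untested, had 0 and 0 reads in NSC against 4 and 9, and Pdgfrb had 5 reads in NSC Bmi1Over replicate 2 alone. The part of such cells in the P2rx1 counts was not tested.

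The 5 tested genes whose pattern over the 4 libraries was most like that of P2rx1 were Oxtr, Aplnr, Cdhr3, Tmem182 and Srpx2, with a root mean square difference of the centred log2 CPM between 0.17 and 0.30. Oxtr, the oxytocin receptor, came closest. It was at 0.444 and 1.62 CPM in NSC and at 5.54 and 5.93 CPM in the cultures labelled NSC Bmi1Over (log2 fold change 2.52, SE 0.46, adjusted p = 0.0397, edgeR). As they were picked for likeness over these same 4 libraries, their differences between the groups and between the NSC cultures follow from the choice, and the values are a description. Tmem182, a muscle membrane protein gene, was at 0.285 and 1.03 against 3.14 and 3.19 CPM (adjusted p = 0.0471). Aplnr, the apelin receptor, and Srpx2, a secreted sushi-repeat protein, had 2 and 6 and 1 and 3 reads in NSC, which is too few for a fold change to be given (adjusted p = 0.0493 and 0.0407). Cdhr3, a cadherin of ciliated cells, missed the threshold (adjusted p = 0.0689). Oxtr, Tmem182 and Srpx2 passed the threshold no longer without NSC Bmi1Over replicate 2 (adjusted p = 0.0621, 0.0891 and 0.0908), nor did Aplnr (0.134, and 0.0504 to 0.345 in 4 other alternatives). Tmem182 also missed it with DESeq2 size factors (0.0554) or a stricter filter (0.0508), and Srpx2 without NSC replicate 1 (0.215). Cdhr3 passed it with library size alone (0.0422), no filter (2.18e-09), the replicate block (0.000998), the DESeq2 Wald test (0.00434), without NSC replicate 2 (1.35e-08) and without NSC Bmi1Over replicate 1 (0.0218).

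The genome around the members was examined next. The 7 genes lie on 4 chromosomes, with P2rx7 and P2rx4 side by side. Within 100 kb of any member lay 36 other protein-coding genes, of which 30 were tested, and 3 were called higher and 0 lower, against 2.03% and 0.122% of all genes tested. Their median log2 fold change was 0.13. Atp2a3, which encodes the calcium pump SERCA3, ends 6058 bp before P2rx1 begins on the same strand. It rose from 4.31 and 8.74 CPM in NSC to 21.3 and 28.1 CPM in the cultures labelled NSC Bmi1Over (log2 fold change 1.94, SE 0.30, adjusted p = 0.0276, edgeR). Camkk1, a calcium/calmodulin-dependent kinase kinase that starts 3807 bp after P2rx1, was at 9.73 and 8.54 against 11.7 and 14.4 CPM (log2 fold change 0.52, adjusted p = 0.137). Its paralogue Camkk2 ends 1431 bp from P2rx4 on the opposite strand and rose from 102 and 118 to 219 and 176 CPM (log2 fold change 0.85, SE 0.15, adjusted p = 0.0398), although not past the threshold without NSC replicate 1 (adjusted p = 0.145). Aplnr, named above, was the other called gene and lies 98762 bp from P2rx3.

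**Figure D4:**
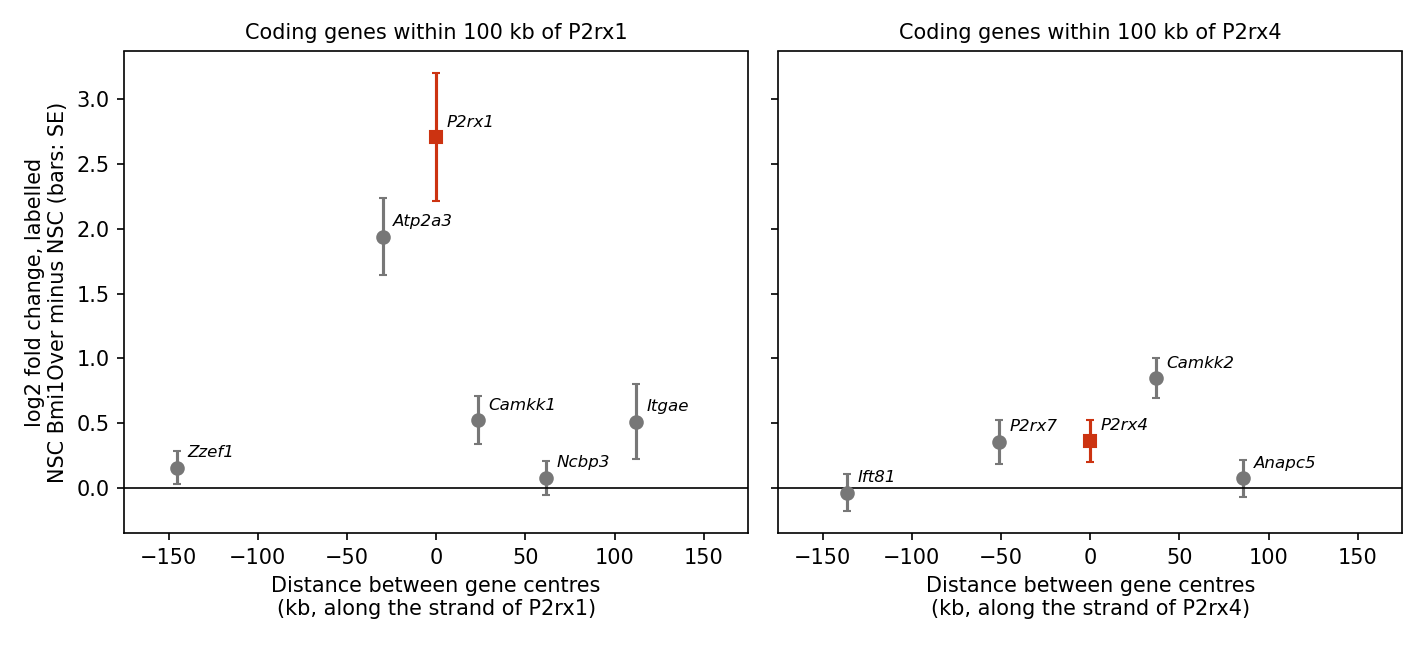
Fitted log2 fold change, cultures labelled NSC Bmi1Over minus NSC, of the tested coding genes within 100 kb of P2rx1 (left) and of P2rx4 (right), against the distance between gene centres in kb, with bars of 1 standard error and the named member as a square. Atp2a3 at 1.94 stands beside P2rx1 at 2.71, and Camkk2 at 0.85 beside P2rx4 at 0.36.

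H3K27me3 was not used to choose the members. The deposited list for NSC held 12982 peaks and that for NSC Bmi1Over 6810, with 1 library each and hence no test. Within 5 kb of an annotated start site, 0 of the 7 members had a peak in either list, nor did any have one in its gene body. The background was 8.83% of coding genes in NSC and 4.38% in NSC Bmi1Over. The nearest peak to the start of P2rx1 was 37370 bp upstream in NSC and 1591036 bp away in NSC Bmi1Over. For the other members the nearest NSC peak lay between 150410 bp (P2rx3) and 754789 bp (P2rx4) from the start site.

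The NSC peak nearest to P2rx1, at chr11:72961383-72961733 of mm10, spans 351 bp and lies in the promoter window of Atp2a3, the only one of the 36 neighbouring genes with such a peak in NSC, while 0 had one in NSC Bmi1Over. It was weak: its fold enrichment was 3.67 and its −log10 q 2.03, where the lowest values in that list were 3.52 and 1.77. The smallest fold enrichment in the NSC Bmi1Over list was 4.03, so a peak of this height would not be found there, and a loss of the mark cannot be told apart from a difference in depth between the libraries. Of the 40 other purinergic genes, P2ry4, Adora2a and Entpd2 had a promoter peak in NSC and Entpd2 in NSC Bmi1Over.

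The promoters of P2rx1, for which the family was chosen, of P2rx7, the most abundant, and of its neighbour P2rx4 are shown to give the sequence that was without a listed H3K27me3 peak. They end at the base before the annotated start, come from RefSeq (GRCm38.p6) on the plus strand and lie at chr11:72998895-72999102 for P2rx1, chr5:122643677-122643910 for P2rx7 and chr5:122707294-122707543 for P2rx4. Capitals mark each CG, the dinucleotide that is dense in the CpG islands where Polycomb complexes are known to bind.
P2rx1: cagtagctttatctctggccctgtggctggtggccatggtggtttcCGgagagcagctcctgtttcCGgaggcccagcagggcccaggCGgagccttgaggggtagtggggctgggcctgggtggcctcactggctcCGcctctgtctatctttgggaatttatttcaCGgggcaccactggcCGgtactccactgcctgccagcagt
P2rx7: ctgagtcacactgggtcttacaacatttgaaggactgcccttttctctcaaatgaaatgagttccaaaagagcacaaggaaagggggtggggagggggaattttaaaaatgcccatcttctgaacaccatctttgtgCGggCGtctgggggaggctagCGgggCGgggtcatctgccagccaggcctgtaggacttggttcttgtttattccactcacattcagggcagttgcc
P2rx4: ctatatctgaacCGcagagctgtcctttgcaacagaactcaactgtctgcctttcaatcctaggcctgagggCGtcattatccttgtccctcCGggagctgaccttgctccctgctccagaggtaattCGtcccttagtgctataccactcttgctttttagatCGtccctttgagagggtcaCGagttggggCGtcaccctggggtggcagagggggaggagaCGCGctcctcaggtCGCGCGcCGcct

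P2rx1 has 6 CG in 208 bp, against a median of 4 over the 32851 promoters of the table at the same length, and 43.8% of these have as many. P2rx7 has 4 in 234 bp against a median of 5, and P2rx4 has 13 in 250 bp against a median of 6, which 31.5% of promoters reach. Both strands were searched for the letters TATAAA of the TATA box, for the GC box known to bind Sp1 (GGGCGG) and for the core of the CCAAT box. The P2rx1 and P2rx4 sequences hold none of the 3, which 9.47%, 26.2% and 29.6% of promoters hold at the length of P2rx1. The P2rx7 sequence holds 1 GC box on the plus strand, as 30.4% of promoters do on either strand at its length, and the P2rx6 promoter holds 1 of each of the 3 motifs. These are matches of letters only.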

How the data were processed

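RNASeq reads were trimmed (Trim Galore) and mapped to mm10 by the authors using STAR (version not given in the sources used here), who deposited raw counts of reads per gene for each library. The unstranded counts were used. Unmapped, multi-mapped, ambiguous and gene-less reads were left out, so that 65.9% to 72.2% of reads were counted. For ChIPSeq, the authors mapped reads with Bowtie2 2.3.4 and ran MACS2 in broad mode on a single library of each kind. The deposited peaks carry a fold enrichment (a ratio to background), the −log10 of the p-value and q-value, and a display score, which was not used here. ChIPSeq depth is not in these lists, but the supplement of the paper states read totals of the replicas, which are not reported here. Of the replicas, the authors discarded the weakest.

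Of the 50686 gene identifiers, 50462 matched GENCODE vM21. Counts of the 15521 genes kept by filterByExpr were normalised by TMM (factors 0.932 to 1.08) and fitted with the quasi-likelihood F-test of edgeR 4.0.16 in R 4.3.3, without a replicate term. P-values were adjusted by Benjamini-Hochberg over all tested genes, and genes under 0.05 were called. The SE was taken from the log2 fold change and F. DESeq2 1.42.0 was an alternative. The biological coefficient of variation was 12.9%. The steps were checked on simulated counts. With 2 cultures per group, an exact permutation test of a single gene cannot give a two-sided p below 0.333. The Results of the paper call the 2 NSC cultures biologically independent, and its methods name 2 biological replicas of each kind for ChIP.

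A promoter was the window of 5 kb on either side of an annotated start site of a coding gene, and an overlap of 1 bp counted. Genes were named by rule: the 7 members, the 3 of highest mean CPM and any called gene of each purinergic list, the 5 genes most like P2rx1, called coding genes within 100 kb of a member, those next to P2rx1, and Bmi1. Other purinergic genes and the cell type markers in the text were named after their values were seen. The members and lists were chosen with earlier results of these data known. Promoter sequences came from a RefSeq table that held P2rx1, P2rx4, P2rx6 and P2rx7.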

Additional observations from a re-analysis of the deposited data

How the results depend on the processing

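In place of 334 called genes under the settings described, library size alone gave 537 (64.4% of them higher), no filter on low counts 2356 (80.4% higher), the DESeq2 Wald test 1488 (87.2% higher) and leaving out 1 culture 176 to 2546. Of the 7 members, 2 were called in place of 1 with library size alone, with no filter and by the Wald test (P2rx1 and P2rx3), and 1 to 2 when 1 culture was left out, where P2rx7 joined without NSC Bmi1Over replicate 1 and P2rx3 alone remained without NSC Bmi1Over replicate 2. The log2 fold change of P2rx1 was 2.57 to 2.82 under the 9 settings that kept all cultures. Of the other purinergic genes, called 0 at first, 10 were called with no filter, 1 with libraries thinned to the shallowest, 4 by the Wald test and 0 to 8 when 1 culture was left out. The log2 fold change of Adora2a turned to 0.080 when thinned and ran from −0.55 to 0.44 when 1 culture was left out, above 0 without NSC replicate 1. That of P2ry2 ran from −2.43 to 0.099, again above 0 without NSC replicate 1. These were the 3 changes of sign among 428 fold changes of named genes that were recomputed, and their cause was not tested.

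With the replicate number as a block, 3459 genes were called (70.3% higher), with 3 members (P2rx1, P2rx3 and P2rx7) and 13 other purinergic genes. The labels pair the cultures by number only, and deviations of same-numbered cultures correlated at 0.153, over 2 pairs. The order of the mean levels per length over the 4 libraries stayed as it was with another gene length or the strand columns added. Adding the strand columns nevertheless moved P2rx3 above P2rx4 in both libraries labelled NSC Bmi1Over. Ranks within each library with another gene length are not given here. The alternatives for peaks (window, q, fold, peak width and overlap) were all stricter, so that they could not raise the 0 promoter peaks at the members. P2rx2, P2rx5 and P2rx6 had 9 to 22 reads in the shallowest library, which limits what their differences can show.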
